A study of Rattus norvegicus with 18 samples.

Results

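Lgals3, Gpnmb and Grn encode galectin-3, glycoprotein nmb and progranulin, all of them proteins that phagocytes make in quantity when they take up and digest lipid-rich debris. The 3 genes were chosen from earlier results of these data, in which their signals in the spinal cord were higher at 18 months and at 30 months than at 6 months. The spinal cord values of the 3 genes are therefore a description, with no test, and the test of age in the oculomotor nucleus is the comparison that the choice is taken not to have used. Each gene was measured by 1 probe set, 1386879_at for Lgals3, 1368187_at for Gpnmb and 1386893_at for Grn, so that the account covers 3 of 15923 probe sets on the array and 3 of the 10412 genes they name.

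The arrays, Affymetrix Rat Genome RA230, read 2 regions of the nervous system of rats labelled F344BN, a strain name used for crosses of Fischer 344 and Brown Norway animals. Motor neurons of the spinal cord drive limbs and trunk, whereas those of the oculomotor nucleus, in the midbrain, drive most muscles of the eye. For either region the ages were 6, 18 and 30 months with 3 arrays per age, which makes 18 arrays, and no treatment or genotype distinguished them. The RNA on an array was combined from 4 animals, so the adjusted p-values given here measure the spread between pooled samples. The labels were followed for the 3 replicates of a group, although the submitters' design text counts 4. Neither the sex of the animals nor whether both regions were taken from the same ones is given in the sources used here.

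Galectin-3 is a sugar-binding protein that phagocytes secrete and that also gathers on damaged lysosomes inside the cell. Glycoprotein nmb is a membrane protein of late endosomes and lysosomes, first found in melanoma lines and shared by pigment cells, osteoclasts and macrophages. It is known in mouse as a gene of microglia around plaques and of macrophages filled with lipid. Progranulin is secreted, taken up through sortilin or together with prosaposin, and cut in the lysosome into granulins, and people who lack it develop neurodegeneration with lysosomal storage. In nervous tissue Grn is made by neurons as well as by microglia, whereas Lgals3 and Gpnmb are low in resting microglia of adult rodents and high in microglia that clear myelin.

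Promoter windows are shown for the genes because glycoprotein nmb is a known target of MITF and its relatives TFEB, TFE3 and TFEC, transcription factors that switch on lysosomal genes. RefSeq promoter windows of build GRCr8 were matched for 2 of the 3 genes, Gpnmb and Grn, each running from 250 bases before the annotated start of the gene to 50 bases from it on. The Gpnmb window lies at chr4:79340878-79341177 and the Grn window at chr10:87887584-87887883, both on the plus strand. They are written 5′ to 3′ in lower case, with matches to the searched motifs in capitals.
Gpnmb: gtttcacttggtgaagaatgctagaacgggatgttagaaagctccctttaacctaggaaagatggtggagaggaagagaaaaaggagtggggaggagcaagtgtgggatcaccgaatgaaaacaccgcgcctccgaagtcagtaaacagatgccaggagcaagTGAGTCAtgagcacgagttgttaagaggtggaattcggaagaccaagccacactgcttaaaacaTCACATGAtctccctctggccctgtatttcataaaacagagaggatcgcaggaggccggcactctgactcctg
Grn: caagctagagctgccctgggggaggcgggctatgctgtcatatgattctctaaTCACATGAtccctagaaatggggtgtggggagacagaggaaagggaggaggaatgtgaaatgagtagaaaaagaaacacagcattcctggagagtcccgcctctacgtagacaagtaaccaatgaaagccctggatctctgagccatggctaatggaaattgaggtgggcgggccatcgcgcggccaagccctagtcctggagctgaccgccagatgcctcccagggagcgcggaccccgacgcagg
Both strands were searched for 3 motifs, the M-box TCACATGA (reverse TCATGTGA), the E-box CACGTG and the AP-1 site TGAGTCA (reverse TGACTCA). The M-box, the form of site that MITF reads in pigment genes, stood in both windows, with its first base at -23 from the start in Gpnmb and at -197 in Grn. Of 33469 windows of the same length 389 held it, which is 1.16%. The Gpnmb window also held the AP-1 site at -87, found in 4.63% of all windows, and neither window held the E-box, found in 6.42%. The motifs were chosen after these windows had been read, and a match is a run of letters, not a measured binding site.

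Every array had nearly the same trimmed mean signal, between 500.083 and 500.101, and signals under 66.4, the 20th percentile of all values, were treated as that floor. All 54 values of the 3 genes lay above it. The number of arrays, 3 per group, limits the precision of each mean. Of the cord arrays, 3 carried muscle transcripts: the signal of Acta1, which encodes muscle actin, was 3631 and 2008 on 6-month replicates 2 and 1 and 1529 on 18-month replicate 2, against 253 to 503 on the other cord arrays. Apart from muscle, 4 arrays stood apart on principal component 1 of the deviations from group means, which held 27.1% of the variance. They were replicate 3 of the 18-month cord, replicate 3 of the 30-month cord, replicate 1 of the 6-month cord and replicate 3 of the 30-month oculomotor nucleus, with scores between -16.6 and -12.1. At the other end, replicate 2 of the 30-month oculomotor nucleus scored 14.2, while the remaining 13 arrays scored between -1.70 and 9.01. The first 2 of the 4 are also the arrays on which the 3 genes departed from their groups, as described with their values.

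In the spinal cord all 3 genes had signals at 18 and 30 months above the whole range at 6 months, and Lgals3 and Gpnmb were set furthest apart. In bulk tissue, fewer or more cells of a type and less or more RNA per cell cannot be told apart. Between 18 and 6 months Lgals3 had the largest change of all 9482 probe sets kept for the fit, Gpnmb the second largest, and Grn ranked 38. These ranks come from the values that chose the genes. Groups that did not overlap, with the older one higher, were found for 6.95% of all probe sets between 18 and 6 months, for 6.68% between 30 and 6 months and for 3.11% between 30 and 18 months, and nothing is read from the genes' own places among them. The background of called probe sets, at a Benjamini-Hochberg adjusted p under 0.05 in limma, was 0.728% at 18 against 6 months (0.538% higher, 0.19% lower) and 0.221% at 30 against 6 months (0.169% higher).

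Lgals3 had cord signals of 412, 475 and 419 on the 6-month arrays, 2161, 2223 and 1427 on the 18-month arrays and 1085, 1035 and 2501 on the 30-month arrays. The 6-month arrays lay close together, and the lowest of the older arrays, at 1035, was clear of the highest of them, at 475. Means were 1937 ± 443 at 18 months and 435 ± 34.6 at 6 months (SD, n = 3 each), a log2 change of 2.13 (SE 0.27), which is 4.37-fold. At 30 months the mean was 1540 ± 832, against the same 6-month mean a log2 change of 1.70 (SE 0.27), which is 3.25-fold. The ages 30 and 18 months overlapped, with a log2 difference of -0.43, and the highest signal of the gene in the series was on a 30-month array.

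Gpnmb had cord signals of 359, 296 and 302 on the 6-month arrays, 1708, 1648 and 795 on the 18-month arrays and 800, 748 and 1788 on the 30-month arrays. As for Lgals3, replicate 3 was the low array at 18 months and the high array at 30 months. The change between 18 and 6 months was 2.04 (SE 0.28) on the log2 scale, 4.11-fold, with means of 1384 ± 511 at 18 months and 319 ± 34.8 at 6 months (SD, n = 3 each). Between 30 and 6 months it was 1.69 (SE 0.28), 3.22-fold, with a mean of 1112 ± 586 at 30 months. Like Lgals3, the gene had overlapping signals at 30 and 18 months, with a log2 difference of -0.35.

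Grn covered a narrower range in the cord than the other two genes, with smaller ratios between the ages. It had cord signals of 729, 914 and 1027 on the 6-month arrays, 1862, 1714 and 1221 on the 18-month arrays and 1265, 1201 and 1549 on the 30-month arrays. The lowest older array, 30 months replicate 2, exceeded the highest 6-month array, and replicate 3 was again low at 18 months and high at 30 months. The log2 change was 0.84 (SE 0.15), 1.78-fold, between 18 and 6 months, with means of 1599 ± 336 and 890 ± 151 at these ages (SD, n = 3 each). Between 30 and 6 months it was 0.59 (SE 0.15), 1.51-fold, with a mean of 1338 ± 185 at 30 months, and between 30 and 18 months it was -0.24, with overlap. Within the 6-month group the array poorest in Acta1, replicate 3, had the highest Grn signal. The 2 muscle-rich arrays of the group, replicate 2, the richest, and replicate 1, had the middle and the lowest Grn signal. The part of muscle content in these signals was not tested. Without the 3 muscle-rich arrays the log2 change of Grn was 0.55 at 18 against 6 months and 0.37 at 30 against 6 months, while Lgals3 had 2.07 and 1.75 and Gpnmb 1.95 and 1.76. The 6-month group then holds 1 array, whose spread is taken from the other groups.

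**Figure D1:**
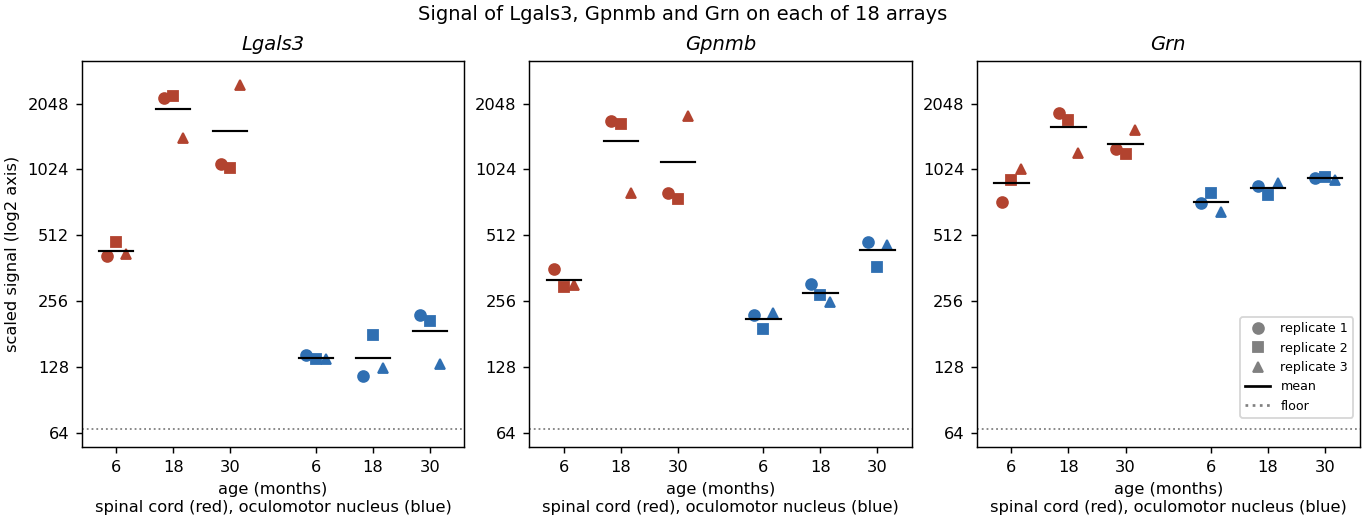
Scaled signal of Lgals3, Gpnmb and Grn on each of the 18 arrays, on a log2 axis, by tissue and age, with 1 point per array and a bar at the mean of each group of 3. In the cord every array at 18 and 30 months lies above the 6-month arrays for all 3 genes, and replicate 3 is the lowest at 18 months and the highest at 30 months. In the oculomotor nucleus Gpnmb is higher at each later age, while the ages overlap for Lgals3.

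The 6 older cord arrays fell into 2 sets of 3 that held the same arrays for Lgals3, Gpnmb and Grn, and each set held both ages. Replicates 1 and 2 of 18 months and replicate 3 of 30 months had Gpnmb signals of 1648 to 1788 and Lgals3 signals of 2161 to 2501, while replicate 3 of 18 months and replicates 1 and 2 of 30 months had Gpnmb signals of 748 to 800 and Lgals3 signals of 1035 to 1427. Grn had 1549 to 1862 on the first 3 arrays and 1201 to 1265 on the others. Pooled correlations between the genes over the 6 arrays are not given, because the arrays form 2 clusters. Cord 18 months replicate 3 was the lowest and cord 30 months replicate 3 the highest of their groups in 3 of 3 genes, in 15 of 19 microglia and macrophage markers (78.9%) and in 835 of all 9482 probe sets (8.81%). Without these 2 arrays the log2 change at 18 against 6 months was 2.33 for Lgals3, 2.40 for Gpnmb and 1.02 for Grn, and at 30 against 6 months it was 1.29, 1.28 and 0.48. Between 30 and 18 months the difference without them was -1.05 for Lgals3, -1.12 for Gpnmb and -0.54 for Grn. Since the 2 arrays were picked as the lowest at 18 months and the highest at 30 months for these genes, leaving them out was bound to widen that difference.

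**Figure D2:**
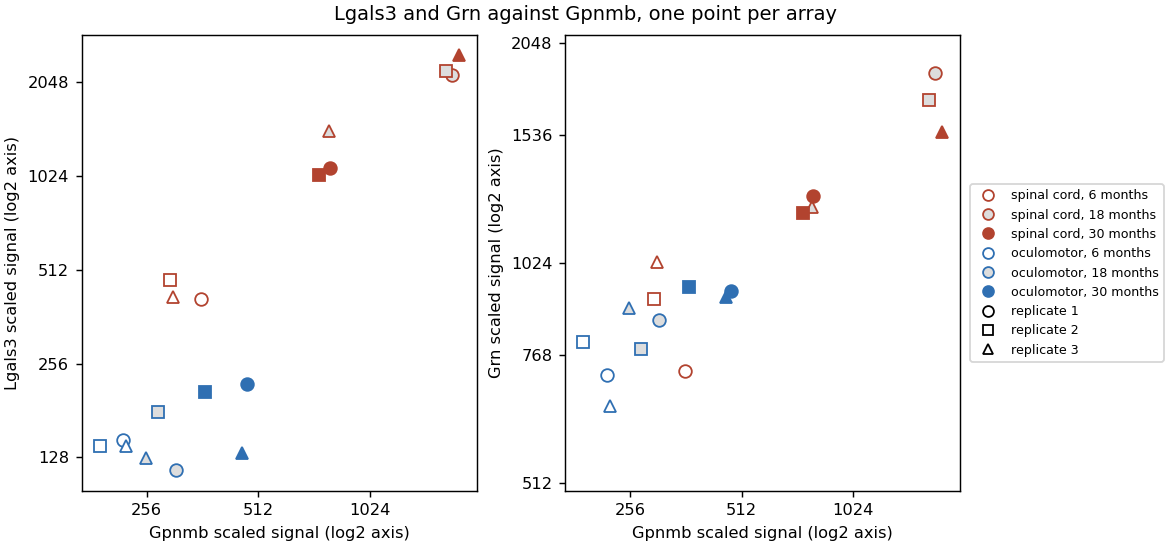
Scaled signals of Lgals3 (left) and Grn (right) against that of Gpnmb on the same array, both axes on a log2 scale, with 1 point per array. Colour shows the region, fill the age and the symbol the replicate. The older cord arrays form 2 clusters, the lower with 18 months replicate 3 and 30 months replicates 1 and 2 (Gpnmb 748 to 800), the upper with 18 months replicates 1 and 2 and 30 months replicate 3 (Gpnmb 1648 to 1788).

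In the oculomotor nucleus the genes were tested for a difference with age, on the assumption, not given by any source, that its values played no part in choosing them. If they did, the adjusted p-values of the 3 genes are too small. Gpnmb stepped up with age there without overlap between any of the ages, by a smaller amount than in the cord, and none of the 3 genes passed the test in the fit of all arrays. In that fit limma called 0.211% of the 9482 probe sets at 30 against 6 months (0.179% higher), 0% at 18 against 6 months and 0.0105% at 30 against 18 months. Groups that did not overlap, with the older one higher, made up 6.68%, 7.29% and 4.51% of the probe sets in these comparisons. Of the 3'/5' ratios that gauge RNA quality, that of hexokinase was lowest at 6 months in the same arrays. It was 1.57 to 1.64 in 6-month, 1.75 to 1.89 in 18-month and 1.76 to 1.91 in 30-month arrays. Those of GAPDH (0.99 to 1.02, 1.01 to 1.02 and 1.00 to 1.09) and beta-actin (1.25 to 1.36, 1.22 to 1.49 and 1.31 to 1.54) overlapped between the ages. The part of RNA quality in these results was not tested.

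Gpnmb had oculomotor signals of 221, 191 and 225 on the 6-month arrays, 307, 274 and 254 on the 18-month arrays and 478, 369 and 464 on the 30-month arrays. No array of an older group fell within the range of a younger one, a pattern of 2 upward steps that 30 of the 9482 probe sets shared (0.316%). Between 30 and 6 months the log2 change was 1.03 (SE 0.28), 2.05-fold, with means of 437 ± 59.7 at 30 months and 212 ± 18.7 at 6 months (SD, n = 3 each) and rank 12 among all probe sets, and it did not pass (limma, Benjamini-Hochberg adjusted p = 0.252). The change was 0.39 at 18 against 6 months (adjusted p = 0.9998) and 0.64 at 30 against 18 months (adjusted p = 0.976), neither past the test. The call at 30 against 6 months changed with the arrays in the fit, which takes 1 spread for all groups. The older cord arrays are the most scattered for this gene. With each tissue fitted by itself the same change of 1.03 had an SE of 0.14 and passed (limma, adjusted p = 0.00912). It also passed without cord 30 months replicate 3 (adjusted p = 0.0397) and without both departing cord arrays (adjusted p = 0.000577). Those 2 arrays were picked by the values of these genes, so leaving them out was bound to lower the shared spread for Gpnmb. The smaller p-values without them are therefore no further evidence of a change. Over all 28 alternatives the adjusted p ran from 0.000577 to 0.762, the last without oculomotor 6 months replicate 2.

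Grn had oculomotor signals of 720, 798 and 654 on the 6-month arrays, 857, 782 and 889 on the 18-month arrays and 939, 950 and 919 on the 30-month arrays. The 30-month arrays lay within a narrow band above all arrays of both younger ages, which overlapped each other. At 30 against 6 months the log2 change was 0.38 (SE 0.15), 1.30-fold, with means of 936 ± 15.5 at 30 months and 724 ± 72.2 at 6 months (SD, n = 3 each), and it did not pass (limma, adjusted p = 0.505). The change was 0.22 at 18 against 6 months (adjusted p = 0.9998) and 0.15 at 30 against 18 months (adjusted p = 0.976).

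Lgals3 had oculomotor signals of 145, 139 and 139 on the 6-month arrays, 116, 179 and 127 on the 18-month arrays and 221, 207 and 132 on the 30-month arrays. All ages overlapped, since 30 months replicate 3 lay below every 6-month array. The other two 30-month arrays were the highest of the region. Both replicate 3 and replicate 2 of this group stood apart on principal component 1, in opposite directions, and the log2 change at 30 against 6 months was 0.60 without replicate 3 and 0.28 without replicate 2. The log2 change was 0.37 (SE 0.27) at 30 against 6 months (limma, adjusted p = 0.762), -0.03 at 18 against 6 months (adjusted p = 0.9998) and 0.40 at 30 against 18 months (adjusted p = 0.976). No value of Lgals3 in the region reached the lowest value in the cord.

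Signals in the cord were higher than in the oculomotor nucleus at each age, and the ratio between the regions was largest at 18 months for each of the 3 genes. For Lgals3 the cord signal was 3.08-fold that of the oculomotor nucleus at 6 months, 13.7-fold at 18 months and 7.74-fold at 30 months, with no overlap at any age. For Gpnmb it was 1.50-fold, 4.71-fold and 2.36-fold, again with no overlap. For Grn it was 1.22-fold at 6 months, where the regions overlapped, 1.87-fold at 18 months and 1.42-fold at 30 months, where they did not. Because these are ratios of values that chose the genes, they carry no test.

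From low to high, Lgals3 ran from the oculomotor nucleus at 18, 6 and 30 months, which overlapped with their neighbours in the order, to cord at 6 months, which overlapped with neither neighbour, and to cord at 30 and 18 months, which overlapped. Gpnmb ran from the oculomotor nucleus at 6 months, on its own, to the oculomotor nucleus at 18 months and cord at 6 months, which overlapped, to the oculomotor nucleus at 30 months, on its own, and to cord at 30 and 18 months, which overlapped. In Gpnmb the 6-month cord, at 296 to 359, thus lay below the 30-month oculomotor nucleus, at 369 to 478. Grn had 4 groups that overlapped with their neighbours, the oculomotor nucleus at 6 and 18 months, cord at 6 months and the oculomotor nucleus at 30 months, below cord at 30 and 18 months, which overlapped. The change at 18 against 6 months in cord minus that in the oculomotor nucleus was 2.15 for Lgals3 (SE 0.38), 1.65 for Gpnmb (SE 0.39) and 0.61 for Grn (SE 0.21) on the log2 scale. At 30 against 6 months it was 1.33, 0.65 and 0.22. For the genes these are descriptions, and the fit of this difference called 0 of 9482 probe sets at either age (0%), with 481 and 519 at an unadjusted p under 0.05.

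Other genes of lipid-laden and disease-associated phagocytes had no member past the test. Of 39 genes listed, 31 had a probe set and 19 passed the filter on low signals, and 0 of the 19 passed limma's test in any comparison of ages, against the 0.728%, 0.221% and 0.211% of all probe sets. In the cord at 18 against 6 months, 7 of the 19 had an unadjusted p under 0.05, against 10.3% of all probe sets. There 14 of the 19 were positive, against 49.5% of all probe sets, and the median log2 change was 0.15, against 0.00. The genes with the smallest p there were Tyrobp, the adaptor through which TREM2 signals (0.74, adjusted p = 0.0527), the lysosomal protease Ctsz (0.82, adjusted p = 0.0663), the engulfment receptor Mertk (0.81, adjusted p = 0.128) and Npc2, which carries cholesterol out of the lysosome (0.39, adjusted p = 0.188). Apoe, the lipid carrier, had 0.01, and the lipid droplet coat gene Plin2 had 0.37 (adjusted p = 0.492).

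At 30 against 6 months the list had a median of 0.09 in the cord, where Tyrobp had 0.51 and Ctsz 0.51 (adjusted p = 0.251 and 0.351). In the oculomotor nucleus at the same ages the median was 0.02, with Npc2 at 0.56 (adjusted p = 0.0813) and Ctss, a protease of microglial lysosomes, at 0.67 (adjusted p = 0.221). Each of these comparisons had 4 of 19 genes at an unadjusted p under 0.05, against 10.7% of all probe sets in the cord and 8.12% in the oculomotor nucleus. The genes that handle stored and scavenged lipid, Lpl, Cd36, Olr1, Fabp4, Soat1, Nr1h3 and Pparg, did not pass the filter, and Trem2, Msr1, Abca1, Npc1, Itgax, Cst7, Clec7a and Ch25h were not analysed here. Lipid loading of the cells was therefore not shown by these lists, and the 3 genes are called by their names.

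Cd68, a lysosomal membrane protein used to mark phagocytes, also fell below the filter, and its signals resembled those of the 3 genes in cord. It had 54.4, 97.6 and 106 on the 6-month arrays, 345, 441 and 195 on the 18-month arrays and 213, 167 and 353 on the 30-month arrays, with replicate 3 again lowest at 18 months and highest at 30 months. In a fit with no filter its log2 change at 18 against 6 months was 1.81 (limma, adjusted p = 0.0321), a bound from below since 1 of the 6-month arrays lay under the floor. That was the only gene of the list to pass in the fit without a filter. The lipid genes below the filter went both ways in that fit and comparison. Soat1 had 1.00 and 0.82 by its probe sets, Nr1h3 had 0.06, Lpl -0.06 and Pparg -0.54. Cd36, Olr1 and Fabp4 had no measurable change.

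Among 10 measured galectins and proteins that bind galectin-3, 0 passed the test in the comparisons of age other than cord 18 against 6 months. In that comparison 1 of the 10 passed, against 0.728% of all probe sets called. It was Lgals3bp, a secreted glycoprotein that galectin-3 binds, with signals of 615, 821 and 426 at 18 months, against 338, 335 and 272 at 6 months. The list's median change was 0.34. All 3 arrays of the gene at 18 months lay above those at 6 months, as for 6.95% of all probe sets. Lgals3bp was lowest on replicate 3 at both ages. It rose by 0.93 on the log2 scale (limma, adjusted p = 0.0127), and over 28 alternatives the adjusted p ran from 0.000301 to 0.133, the highest without the 3 muscle-rich arrays, where the change was 0.91. At 30 against 6 months Lgals3bp had 0.57 (adjusted p = 0.198) in the cord and 0.34 (adjusted p = 0.628) in the oculomotor nucleus.

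The galectins themselves did not pass in any comparison. Lgals9, which binds the immune receptor TIM-3, had 0.44 in the cord at 18 against 6 months (adjusted p = 0.0913) and 0.39 at 30 against 6 months (adjusted p = 0.183). Lgals8, a galectin that marks broken vacuoles for autophagy, had 0.50 and 0.71 by its brighter probe set (adjusted p = 0.274 and 0.098) and -0.02 and -0.01 by the other, so its probe sets disagree. Lgals1, a galectin of many cell types, had -0.15 and -0.17. Lgals2 and Lgals7 lay at the floor on all 18 arrays.

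None of the 7 measured genes of the MITF family and the partners of glycoprotein nmb passed the test in any comparison of ages. At 18 against 6 months in the cord Mitf had -0.04, Tfeb -0.07 and Tfe3 0.11, each with an adjusted p between 0.903 and 0.954, and Tfec lay at the floor on all 18 arrays. The list median was 0.00 there, as over all probe sets. An unadjusted p under 0.05 was found for 1 of the 7, against 10.3% of all probe sets. Cd44, a receptor of glycoprotein nmb on astrocytes, had 0.42 (adjusted p = 0.63), and Adam10, the protease that sheds the protein, had -0.33 (adjusted p = 0.386).

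Receptors, proteases and lysosomal partners of progranulin were measured by 11 genes, of which 0 were called by limma in the cord at 18 against 6 months. There 1 of the 11 reached an unadjusted p under 0.05, against 10.3% of all probe sets. Sort1, the uptake receptor sortilin, had a log2 change of -0.04 and Psap, the lysosomal partner prosaposin, 0.08. Ctsd, Ctsb and Ctsl, cathepsins of the lysosome, had 0.28, 0.16 and 0.14, and Tnfrsf1a, a receptor for tumour necrosis factor that progranulin is reported to bind, had 0.65 (adjusted p = 0.468). Of 35 lysosomal hydrolases and membrane proteins 0 passed in any comparison of ages, with medians of 0.12 in the cord at 18 against 6 months, 0.05 at 30 against 6 months and 0.05 in the oculomotor nucleus at 30 against 6 months. The unadjusted p was under 0.05 for 5, 3 and 3 of the 35 in these comparisons, against 10.3%, 10.7% and 8.12% of all probe sets.

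Microglia and macrophage markers did move with age in both regions. In the cord at 18 against 6 months 49.5% of all probe sets were positive. By the brightest probe set of each of 19 measured markers, all 19 were positive there, with a median of 0.69. Aif1 had 0.79 by that probe set but -0.36 by its other one, which had -0.30 at 30 against 6 months. Of the 19 markers 9 rose at 18 against 6 months (limma), against 0.728% of all probe sets called. Among them Fcgr2b, the inhibitory Fc receptor, rose by 1.51, Plek, a platelet and leukocyte signalling protein, rose by 1.34, Mpeg1, a macrophage pore protein, rose by 0.99, Cd53 rose by 0.89 and Fcer1g rose by 0.69, with adjusted p between 0.0026 and 0.0065. The gene lists and markers were chosen with earlier results of these data known, so the p-values of their members may be too small. At 30 against 6 months 3 of the 19 rose in the cord, Fcgr2b, Plek and Mpeg1, against 0.221% of all probe sets called, with a median of 0.51. In the oculomotor nucleus 5 of the 19 rose at 30 against 6 months, against 0.211% of all probe sets called, with a median of 0.44. They were Plek by 1.16, Fcgr2b by 1.10, Mpeg1 by 0.91, Cd53 by 0.75 and Fcer1g by 0.57. By its other probe set Mpeg1 had 0.40 there and did not pass (limma, adjusted p = 0.736). At 18 against 6 months 0 rose there, with a median of 0.31 and 7 at an unadjusted p under 0.05 (3.39% of all probe sets). Without the 3 muscle-rich arrays the counts were 0, 0 and 2 in the first 3 of these comparisons, with medians of 0.63, 0.54 and 0.44, and without the 2 departing cord arrays they were 13, 1 and 8. With each tissue fitted by itself they were 1, 0 and 6, and with a replicate block 5, 0 and 0. The oculomotor count was also 0 with no filter and 0 without replicate 2 or replicate 3 of either 6 or 30 months. Over the 28 alternatives Mpeg1 was called there in 22, Plek in 13, Fcer1g in 8, Fcgr2b in 7 and Cd53 in 4.

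The summed signal of the 21 microglia and macrophage markers on the array gives the same picture by group. On the 6-, 18- and 30-month arrays it was 16325 to 17897, 23861 to 28903 and 20644 to 30589 in the cord, and in the oculomotor nucleus 11149 to 12217, 14261 to 15974 and 15492 to 18655. The sums at 18 and 30 months lay above those at 6 months in both regions. Beside the oculomotor values of Gpnmb, the part of these markers in the result was not tested.

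**Figure D3:**
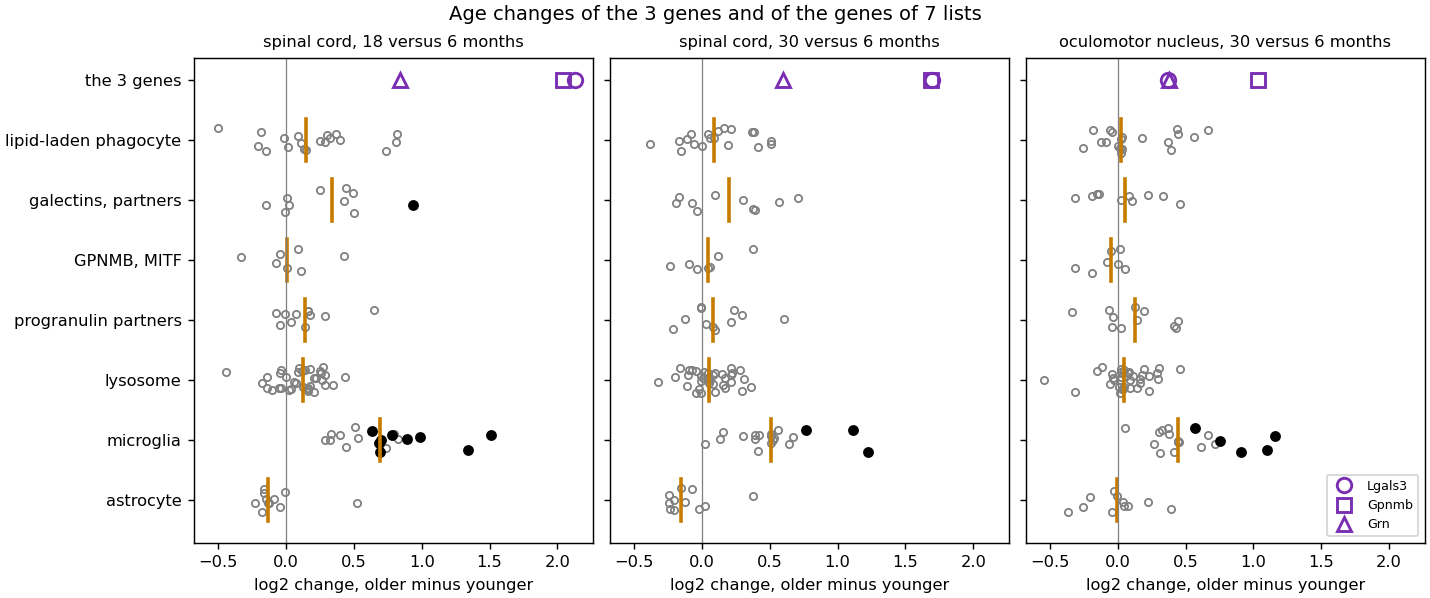
Log2 change of each measured gene of 7 gene lists, with 1 point per gene, a bar at each list's median and filled points for genes past limma's test, for the cord at 18 and at 30 against 6 months and the oculomotor nucleus at 30 against 6 months, with Lgals3, Gpnmb and Grn drawn beside them. Microglia and macrophage markers lie to the positive side in each panel, and the medians of the lysosome, progranulin and glycoprotein nmb lists lie between -0.05 and 0.14.

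Markers of other cell types were read in the same arrays. Of 15 blood monocyte and neutrophil markers 9 were on the array and 1, Plac8, passed the filter (cord 18 against 6 months 0.73, limma, adjusted p = 0.142). Their summed signal in the cord was 1179 to 1710 at 18 months and 896 to 1429 at 30 months, against 763 to 834 at 6 months, without overlap, and S100a8, the defining neutrophil transcript, lay at the floor on all 18 arrays. The higher blood marker sum moves with the 3 genes, and its part was not tested. Of 10 melanocyte markers 3 were on the array, Mlana lay at the floor on every array, and the cord sums were 377 to 429 at 18 months and 436 to 441 at 30 months, inside the 301 to 506 of 6 months. Of 11 bone and osteoclast markers 8 were on the array, with cord sums of 984 to 1315 at 18 months and 879 to 1096 at 30 months, against 1153 to 1460 at 6 months, so that they were lower at 30 months without overlap. Of 11 astrocyte markers 0 passed in any comparison of ages. In the cord at 18 against 6 months their median was -0.13, with 1 at an unadjusted p under 0.05, against 10.3% of all probe sets. Meninges and fibroblast markers were lower in the oculomotor nucleus at 30 months, with sums of 8737 to 10406 against 12418 to 13333 at 6 months. Of 11 measured, 3 were called lower (limma), Igf2 by 1.13, Slc13a4 by 1.05 and Col1a1 by at least 1.33. Col1a1 had 1 array at the floor and its other probe set did not pass the test. These 3 were all the probe sets called lower there, 0.0316% of the 9482.

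The genes whose log2 signals were most like each of the 3 over the 9 cord arrays were named by the highest Pearson correlation, 5 for each. For Lgals3 they were Fcgr2b (0.993), Pdlim4 (0.987), Psme1 (0.986), Fcer1g (0.986) and C3 (0.982). For Gpnmb they were Cnn3 (0.990), C3 (0.982), Mpeg1 (0.982), Psme1 (0.979) and Cp (0.978), of which Cp is the copper protein ceruloplasmin. Psme1, a proteasome activator subunit, and C3, the central complement protein, stood in both lists. For Grn they were C1s, a complement protease (0.983), Hsd17b12 (0.971), the cytokine Il18 (0.970), Cpne8 (0.959) and Shisa5 (0.958), none of them shared with the other 2 genes. The points share the age groups and the 2 sets of older arrays, so these values describe the cord arrays and carry no p.

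In the oculomotor nucleus high correlations remained for a few of these genes. The points there share the age groups too, so the values are a description with no p. Over the 9 oculomotor arrays the correlation with Gpnmb was 0.920 for C3 and 0.879 for Mpeg1, but 0.335 for Cnn3, 0.313 for Psme1 and 0.05 for Cp. For Lgals3 it was 0.525 for Fcgr2b and between -0.421 and 0.413 for the other 4 genes. For Grn it was 0.449 for C1s and between -0.594 and -0.0489 for the others. C3 had oculomotor signals of 486, 555 and 596 on the 6-month arrays, 857, 826 and 883 on the 18-month arrays and 1199, 1099 and 1176 on the 30-month arrays, without overlap between ages, like Gpnmb. It rose by 1.09 at 30 against 6 months there (limma, adjusted p = 0.000574), a call that held in 28 of 28 alternatives. In the cord C3 had 0.93 at 18 against 6 months and 0.77 at 30 against 6 months, given without a test because the gene was named from the cord arrays.

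**Figure D4:**
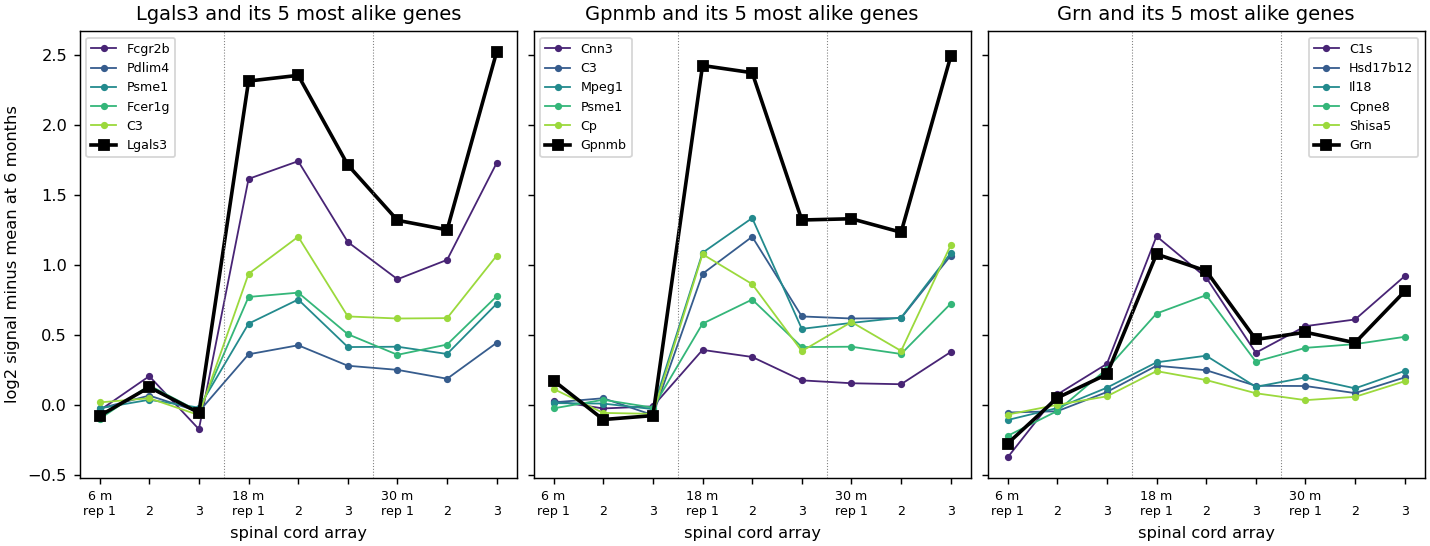
Log2 signal over the 9 cord arrays, each gene relative to its own mean at 6 months, of Lgals3, Gpnmb and Grn and of the 5 genes most correlated with each, in 1 panel per gene. Lines only join the points of a gene and the arrays have no order within an age. In each panel the black line, the gene of the title, and the genes most like it have their lowest 18-month value and their highest 30-month value on replicate 3.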

How the data were processed

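RNA from 18 samples, each combined from 4 animals, was hybridised to 1 Affymetrix RA230 array per sample. Per the submitters' processing notes and design text, the authors summarised the probes with MAS5 (Microarray Suite 5.0), and the deposited table holds 1 linear intensity per probe set and array, without detection calls. The scaling was read from the values: the 2% trimmed mean lay at 500.083 to 500.101 on every array, and medians at 252 to 275.

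Arrays were brought to a common 2% trimmed mean, a floor was set at the 20th percentile of all values (66.4), and log2 was taken. After removal of 57 control probe sets, those with a mean log2 signal over the pooled 40th percentile (7.46) were kept, 9482 in all. Of the 15923 probe sets, 12789 name 1 gene (12754 by Entrez identifier, 35 by the platform's symbol), 312 name several and got no name, and 2822 were not listed. Each gene is given by its brightest probe set.

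limma 3.58.1 in R 4.3.3 was fitted to all 18 arrays with a mean per group, a mean-variance trend and empirical Bayes moderation, giving 12 residual degrees of freedom (18.8 with the prior). Tests were two-sided, adjusted by Benjamini-Hochberg over the 9482 probe sets, and called at an adjusted p under 0.05. The code was tested on simulated data. Fold changes are 2 to the power of the difference between mean log2 signals, and levels are means of scaled signals with their SD.

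The members, gene lists, markers and naming rule were chosen with earlier results of these data known. From a list, up to 6 called genes with the smallest p are named, or otherwise up to 4 not past the test; the galectins, the MITF family and a few partners are named in any case, and the 5 most correlated genes for each of the 3. Further genes (Plin2, Adam10, Ctsl, Ctsd, Ctsb, Tnfrsf1a, Acta1, S100a8, Mlana and the dim lipid genes) were picked after their values were seen. Replicate numbers of the labels did not pair the ages of a tissue: deviations of same-numbered arrays correlated between -0.26 and 0.45 over pairs of groups within a tissue. Between the tissues at the same age they correlated between -0.059 and 0.501, above 0.1 for all 3 numbers at 30 months (0.121, 0.235 and 0.501) and for none at 6 or 18 months; the members' differences between tissues carry no test. Alternatives were other normalizations, floors and filters, a replicate block, separate fits, blocks for departing arrays, and leaving out arrays.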

Additional observations from a re-analysis of the deposited data

How the results depend on the processing

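For the 3 genes, 18 results were recomputed under 28 alternatives, and 496 of the 504 values kept their direction and side of the threshold, or, in the cord, moved by less than 1 SD between replicates. The other 8 are these. Lgals3 in the oculomotor nucleus at 18 against 6 months changed sign with single replicates left out, from -0.21 to 0.10. Gpnmb in the oculomotor nucleus at 30 against 6 months passed at 1.03 with each tissue fitted by itself and at 1.03 without cord replicate 3 of 18 and of 30 months, and single omissions gave 0.96 to 1.15. Those fits leave out all cord arrays or the departing ones, which were picked by the values of these genes. Why the call changed was not tested. In the cord at 30 against 18 months, omission of those replicates, an alternative chosen after seeing the data, gave -1.05 for Lgals3, -1.12 for Gpnmb and -0.54 for Grn. The replicate block gave Gpnmb 1.03 in the oculomotor nucleus at 30 against 6 months (limma, adjusted p = 0.377) and changed no call of the 3 genes. With it 40 probe sets were called in place of 69 in the cord at 18 against 6 months, 2 in place of 21 at 30 against 6 months, and 9 in place of 20 in the oculomotor nucleus at 30 against 6 months.

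Of the lipid-laden phagocyte genes 0 passed in the cord at 18 against 6 months, against 1 with a pseudocount (Tyrobp), 1 with no filter (Cd68), 2 with the 4 departing arrays as a block, 2 without both cord replicates 3, and 0 to 2 with single replicates left out. In the oculomotor nucleus at 30 against 6 months the count was 1 with quantile normalization (Npc2), 2 without both cord replicates 3, and 0 to 2 with single replicates left out. Over all probe sets, single omissions gave 15 to 100 calls in the cord at 18 against 6 months, 0 to 43 at 30 against 6 months and 4 to 69 in the oculomotor nucleus at 30 against 6 months. Other settings gave 3 to 127, 0 to 72 and 8 to 30, and the cause was not tested.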
